A study of Homo sapiens and Mus musculus with 69 samples.

Results

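Untreated cells of 4 established human small cell lung cancer (SCLC) lines were compared: H82 and H524 on one side, and H69 and COR-L88 on the other. The 12 libraries, 3 for each line, are those of the H82, H524 and H69 parental groups, which carry no vector, and of COR-L88 cells given DMSO, and they are part of the 60 human libraries of a series of 69. In the rest of the series the same lines carry a doxycycline-inducible *NOTCH1* or *REST* vector, with or without loss of *REST* or *STING1*, or are given the LSD1 inhibitor TAS1440. COR-L88 has no parental group, so that an effect of DMSO and a property of this line cannot be told apart, and each side consists of just 2 lines. The labels do not say whether the 3 libraries of a line came from separate cultures, and *P* values below measure only the spread between libraries of a line.

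SCLC is a neuroendocrine carcinoma that is grouped by its leading lineage factor. *NEUROD1* is a basic helix-loop-helix factor that marks a neuroendocrine subtype, whereas *POU2F3* and *YAP1* mark types with few neuroendocrine features. *NEUROD1*-high cells are often linked to high *MYC*.

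All 20516 genes of the table entered the comparison, and 14047 of them, with a log2(RPKM + 1) of at least 1 in at least 3 of the 12 libraries, were tested. RPKM scales the reads of a gene to its length and to the size of the library, and every value and difference given for a gene is on this log2(RPKM + 1) scale, on which differences of genes near 0 are understated. A difference is the mean of H82 and H524 minus the mean of H69 and COR-L88. A gene was counted as different when every library of both lines of one side was above every library of both lines of the other, the difference was at least 1, and the limma adjusted *P* was under 0.05. Levels are set side by side only within a gene.

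The subtype factor *NEUROD1* separated the sides. *NEUROD1* had values of 13.67, 13.20 and 13.07 in the 3 libraries of H82 and 14.27, 13.07 and 14.02 in H524. It was 5.03, 4.77 and 3.32 in H69 and 5.75, 5.56 and 5.75 in COR-L88, so that it was detected in all 4 lines, with the sides apart by 8.52 (SE 0.30, limma adjusted *P* = 4.64e-10). *POU2F3* stayed at or under 0.80 in all 12 libraries and was not tested. *YAP1*, an effector of Hippo signaling, was 2.82, 2.36 and 2.60 in H82 but at most 0.16 in H524, and it did not separate the sides. Its difference of 0.78 was 0.25 without H69 and 1.32 without COR-L88, so that COR-L88 also held its mRNA. Of 19 markers of other cell types in the table, 13 were under 1 in all 12 libraries, among them *PTPRC*, *CD3E*, *LYZ*, *CDH5* and *DCN*. The exceptions include *CD14*, up to 4.26 in H69, and *FOXJ1*, up to 3.82 in COR-L88, and 0 of the 3 markers that were tested met the criteria for a difference.

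Of the 14047 genes, 2236 (15.9%) differed between the sides, 1205 (8.58%) being higher in H82 and H524 and 1031 (7.34%) higher in H69 and COR-L88. The median difference was 1.56 for the former and -1.92 for the latter, and 34 and 47 of them differed by at least 5. Separation without regard to size held for 3039 genes (21.6%), of which 1644 (11.7%) were higher in H82 and H524 and 1395 (9.93%) in H69 and COR-L88, whereas the limma thresholds without separation passed 4265 (30.4%). The gene sets that marked single lines were of the same order: 642 genes were at least 1 above the other 3 lines in every library of H69, 417 in COR-L88, 409 in H82 and 263 in H524, against 251 genes at least 1 above the other side in both H82 and H524 and 358 in both H69 and COR-L88.

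The lines of one side were not uniformly closer to each other than to the other side. The median absolute difference of line means was 0.634 between H82 and H524 and 0.667 between H69 and COR-L88. It was 0.914 between H82 and H69 and 0.804 between H82 and COR-L88, but 0.672 and 0.680 between H524 and the same 2 lines. Single pairs of lines were compared by limma with the same thresholds of size and adjusted *P*, but without the separation rule. The share of genes that differed was 31.1% between H82 and H524 and 34.1% between H69 and COR-L88. It was 33.5% between H524 and H69, 34.6% between H524 and COR-L88, 40.2% between H82 and COR-L88 and 45.7% between H82 and H69. By these thresholds without separation, 30.4% differed between the sides. H524 was thus about as far from H69 as H69 was from COR-L88.

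The *P* values do not carry over from libraries to lines. With the 4 line means as the units, no gene passed the adjusted threshold in limma, and 1302 had an unadjusted *P* under 0.05, whereas 489 were called with the line as a random block (171 higher in H82 and H524 and 318 higher in H69 and COR-L88). These 489 were 21.9% of the 2236 genes counted as different, so calls were lost in this setting over all genes and not only in single lists. Counts of list members with the line as a random block, given below, stand beside these 171 and 318 of all 14047 genes. Leaving out a line also moved the count, to 4669 without H524, 4320 without COR-L88, 3954 without H69 and 3137 without H82. Separation then has fewer libraries to meet, so a rise by itself does not speak of the lines. Of the 2236 genes, 82.1% (without H82) to 91.4% (without H524) stayed counted.

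Among the genes higher in H82 and H524, the 15 with the widest gap between the sides were *MGMT*, *NEUROD1*, *SPARC*, *MYC*, *NUDT10*, *NEFM*, *RAB32*, *LDOC1*, *CHRNA1*, *OTX2*, *ANXA6*, *NRN1*, *F2R*, *NUDT11* and *KCNJ8*. *MYC* (chromosome 8, 128747680 to 128755197 of GRCh37), the proto-oncogene that drives growth and ribosome synthesis, was 9.20, 8.71 and 9.15 in H82 and 8.89, 8.92 and 8.99 in H524, compared with 1.81, 1.99 and 2.13 in H69 and 1.95, 1.91 and 1.72 in COR-L88. The sides were 7.06 apart (SE 0.11, limma adjusted *P* = 3.64e-12), and the libraries of the 2 lines of a side overlapped. *SPARC*, which encodes a matricellular protein of mesenchymal cells, was 8.54, 8.15 and 7.68 in H82 and 8.47, 8.69 and 8.93 in H524 but at most 0.56 in H69 and 0.49 in COR-L88 (difference 8.20, SE 0.17, limma adjusted *P* = 1.39e-11). *OTX2*, a homeobox factor of the forebrain and retina, was 7.35, 7.54 and 7.53 in H82 and 5.83, 5.17 and 5.07 in H524 and no higher than 0.13 in the other lines.

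*MGMT* (chromosome 10, 131265454 to 131569247 of GRCh37) encodes the enzyme that removes alkyl groups from guanine and thereby opposes temozolomide. It was 9.79, 9.83 and 9.18 in H82 and 8.55, 9.39 and 8.21 in H524, whereas the 6 libraries of H69 and COR-L88 had it listed at 0. *NEFM*, a neurofilament subunit, followed the same pattern, with 6.32, 5.56 and 6.23 in H82, 5.94, 6.91 and 6.18 in H524 and 0 in the other 6 libraries, as did *RAB32*, a small GTPase of melanosome and mitochondrial traffic (5.91, 5.95 and 5.83, and 5.43, 5.53 and 5.50). In all, 38 genes (0.271% of those tested) were at 2 or above in every library of H82 and H524 and under 0.5 in every library of H69 and COR-L88. *HMGA2* and *IGF2BP1*, which encode an architectural chromatin protein and an RNA-binding protein of fetal tissues, were among them. *HMGA2* was 6.01 to 6.64 in H82 and 3.94 to 4.23 in H524, and *IGF2BP1* 5.61 to 5.94 and 3.90 to 4.45.

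The opposite list of 15 included *ST14*, *SOX2*, *HOXB9*, *HOXB4*, *TMEM176A*, *FAM83F*, *SCNN1A*, *NKAIN2*, *SMIM22*, *TFF3*, *KRT8*, *UCN3* and *FABP5*. *SOX2*, a pluripotency and foregut factor, was listed at 0 in H82 and was at most 0.08 in H524, against 7.08, 7.14 and 6.87 in H69 and 7.31, 7.12 and 7.15 in COR-L88 (difference -7.09, SE 0.09, limma adjusted *P* = 8.38e-13). *ST14*, which encodes the epithelial membrane protease matriptase, was 1.24, 0.00 and 1.77 in H82 and 4.32, 2.56 and 3.29 in H524, against 12.46, 12.70 and 12.45 in H69 and 12.76, 12.73 and 12.90 in COR-L88, and its difference of -10.47 (SE 0.32, limma adjusted *P* = 1.91e-10) was the largest of the genes counted as different. *FOXA2*, a forkhead factor of endoderm, was at most 0.01 in H82 and H524 and 4.87, 5.15 and 4.85 in H69 and 4.73, 5.02 and 4.72 in COR-L88. Its relative *FOXA1* was present on both sides, at 5.59 to 6.28 in H82 and H524 and 8.14 to 8.89 in the other lines. On this side 47 genes (0.335%) met the criterion for presence in one pair and absence from the other, and *GRP*, which encodes gastrin-releasing peptide, *CDCP1*, *GPX2* and *UCN3* were among them.

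**Figure D1:**
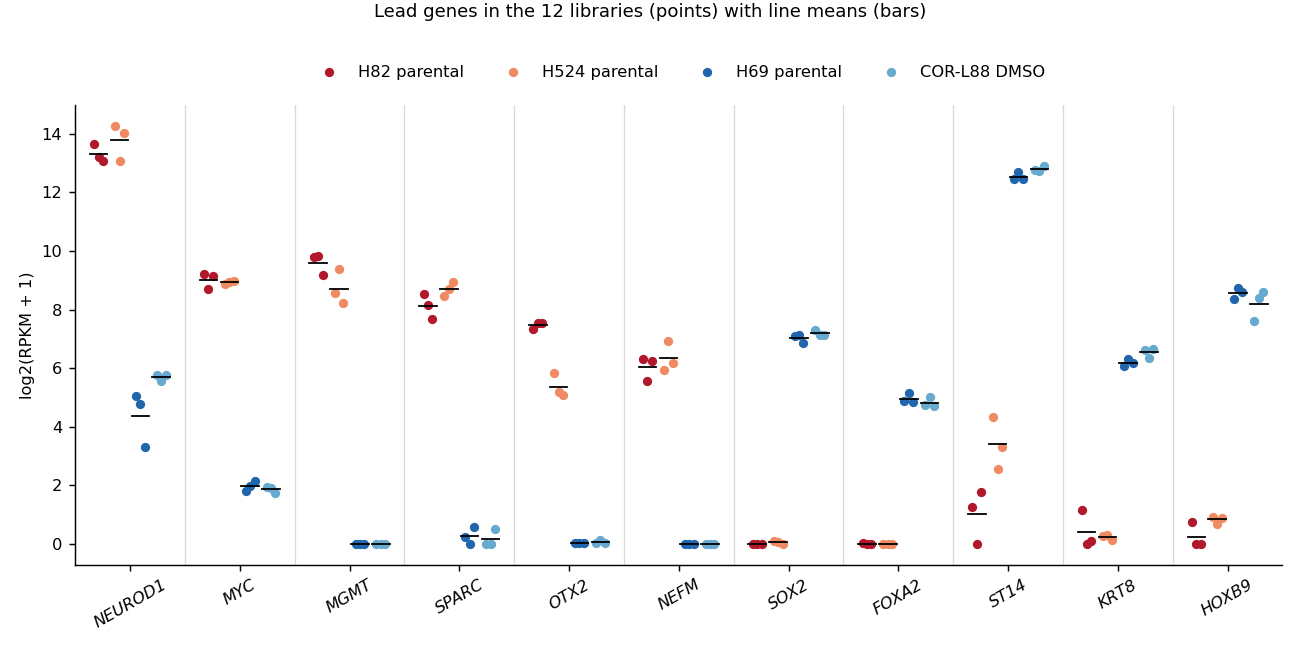
Values of 11 genes in the 12 libraries, on the log2(RPKM + 1) scale; each point is 1 library, each bar the mean of a line, and colors give the line. The 6 libraries of H82 and H524 lie above the other 6 for *NEUROD1*, *MYC*, *MGMT*, *SPARC*, *OTX2* and *NEFM*, and below them for *SOX2*, *FOXA2*, *ST14*, *KRT8* and *HOXB9*.

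Promoters, here 300 bases around the start of a gene and mostly before it, were read from RefSeq (GRCh38.p14) for the 11104 of the 14047 tested genes that matched. Basic helix-loop-helix factors such as *NEUROD1* bind E-boxes, of which the forms CAGCTG and CAGATG were searched on both strands. CAGCTG was present in 16.7% of all promoters, 15.8% of those of genes higher in H82 and H524 and 18.3% of those of genes higher in H69 and COR-L88. CAGATG was present in 9.55%, 10.7% and 9.22%. These shares lay close to those over all genes, and a match in this window is a description of the sequence and not a binding site. The promoter of *SPARC* (chr5:151686866-151687165, minus strand) and that of *CDCP1* (chr3:45146329-45146628, minus strand), 2 genes of opposite sides, are shown with matches to the searched forms in capitals. Other forms of the E-box were not marked.
SPARC: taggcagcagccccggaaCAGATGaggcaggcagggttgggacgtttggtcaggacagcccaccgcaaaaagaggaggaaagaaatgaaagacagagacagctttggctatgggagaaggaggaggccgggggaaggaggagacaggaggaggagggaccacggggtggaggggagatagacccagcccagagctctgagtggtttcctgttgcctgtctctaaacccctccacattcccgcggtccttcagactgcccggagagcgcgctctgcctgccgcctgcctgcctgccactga
CDCP1: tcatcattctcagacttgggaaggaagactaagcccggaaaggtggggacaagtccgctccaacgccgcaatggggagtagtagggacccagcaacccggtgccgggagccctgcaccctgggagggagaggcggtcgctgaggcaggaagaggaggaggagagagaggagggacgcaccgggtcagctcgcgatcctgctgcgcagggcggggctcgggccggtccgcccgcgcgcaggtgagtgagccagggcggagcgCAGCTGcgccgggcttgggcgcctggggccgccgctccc

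The median ratio of observed to expected CpG in promoters was 0.835 over all promoters, 0.744 for the 29 matched genes present in H82 and H524 alone and 0.679 for the 30 present in H69 and COR-L88 alone. The *MGMT* promoter (chr10:129466991-129467290, plus strand) held 45 CpG with a ratio of 1.06. The promoter of *MS4A8* (chr11:60699362-60699661, plus strand), a gene listed at 0 in H82 and H524 and at 4.35 to 5.05 in H69 and COR-L88, held 2 CpG with a ratio of 0.15. Both are shown 5' to 3' with CpG in capitals.
MGMT: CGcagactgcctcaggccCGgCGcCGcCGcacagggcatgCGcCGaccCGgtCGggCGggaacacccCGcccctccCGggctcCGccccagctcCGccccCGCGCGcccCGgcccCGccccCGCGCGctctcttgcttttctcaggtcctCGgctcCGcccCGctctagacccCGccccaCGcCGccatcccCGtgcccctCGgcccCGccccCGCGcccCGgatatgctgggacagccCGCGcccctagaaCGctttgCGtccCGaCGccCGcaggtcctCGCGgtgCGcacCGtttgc
MS4A8: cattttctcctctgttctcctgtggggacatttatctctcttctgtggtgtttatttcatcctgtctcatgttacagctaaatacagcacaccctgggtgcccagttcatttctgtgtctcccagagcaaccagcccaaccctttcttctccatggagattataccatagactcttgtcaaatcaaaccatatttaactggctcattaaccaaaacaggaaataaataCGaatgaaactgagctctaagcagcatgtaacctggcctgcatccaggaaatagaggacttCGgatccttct

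The MYC family was not shared evenly between H69 and COR-L88. *MYCN* was 6.59, 6.79 and 6.66 in H69 and was listed at 0 in COR-L88, whereas *MYCL* was 7.68, 8.22 and 7.98 in COR-L88 and at most 0.20 in H69. H82 and H524 had *MYCN* of at most 0.94 and *MYCL* of 2.93 to 3.61 and 0.92 to 2.14. Each line of that side therefore had high mRNA of a different member, and *MYC* alone of the 3 separated the sides. Of the 12 tested genes of the MYC network, 1 was higher on each side (8.33% each, beside 8.58% and 7.34% of all genes). These shares lay close to those over all genes. *MYC* was higher in H82 and H524 and *MLXIP*, a glucose-responsive partner of MLX, higher in H69 and COR-L88 (difference -1.13). The call of *MLXIP* was lost with the line as a random block, without H82 and in the other untreated libraries of the lines. The obligate partner *MAX* differed little, with 2.38 to 2.90 on one side and 2.35 to 2.60 on the other.

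Genes of the lists for ribosome biogenesis and for nucleotide and amino acid metabolism were counted as different in 1 direction only. The ribosome biogenesis list also holds genes of translation and growth, such as *EIF4A1*, *EIF4E*, *LDHA* and *TERT*. Of the 36 genes of the ribosome biogenesis list, 5 (13.9%, beside 8.58% of all genes) were higher in H82 and H524. In the other lines 0 were higher, beside 7.34% of all genes, and the median difference was 0.87 beside 0.08 over all genes. The 5 were *NPM1* (1.87), *RRP9* (1.83), *EIF4A1* (1.65), *RRP12* (1.17) and *FBL* (1.08). A positive difference was found for 33 of the 36, beside 7520 of all 14047 genes. The level was highest in H82. The mean of the 36 genes was 6.42 to 6.78 in its libraries, 5.57 to 5.81 in H524, 5.27 to 5.30 in H69 and 5.30 to 5.43 in COR-L88, and the median difference was 0.33 without H82. After quantile normalization 2 of the 36 genes were counted, and 0 with the line as a random block. Of 44 metabolic genes, 9 (20.5%, beside 8.58%) were higher in H82 and H524 and 0 (beside 7.34%) in the other lines. The median difference of the 44 was 0.81, and *CPS1* alone was called with the line as a random block. *CPS1*, the first enzyme of the urea cycle, stood out, with 4.50, 4.80 and 4.22 in H82 and 6.52, 6.87 and 6.41 in H524, against 0.58 to 0.78 in H69 and 0.11 to 0.67 in COR-L88 (difference 5.01, SE 0.14, limma adjusted *P* = 9.56e-11). The others included the guanine nucleotide enzymes *IMPDH2* (2.17) and *IMPDH1* (1.62), *ADSL* (1.68) and *ATIC* (1.65) of purine synthesis, and *ARG2* (1.30), a mitochondrial arginase.

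Of 12 neuroendocrine markers, 2 (16.7%, beside 7.34% of all genes) were counted as different, both higher in H69 and COR-L88. *SCG3* was 11.19 to 11.99 in H82 and H524 and 10.80 to 11.94 in the other lines, and *CHGA*, the granule protein chromogranin A, was 4.65 to 5.54 and 4.60 to 6.51. *UCHL1* and *ENO2* did not separate the sides either. *GRP* and *DDC*, which encodes the decarboxylase that makes dopamine and serotonin, were these 2 markers. *SYP*, the synaptic vesicle protein synaptophysin, separated the other way, at 5.81 to 6.67 in H82 and H524 and 4.80 to 5.70 in H69 and COR-L88, but by less than the size required (0.99). *GRP* was at most 0.05 in H82 and H524 and 3.92, 4.11 and 4.02 in H69 and 6.77, 6.38 and 6.51 in COR-L88. *DDC* was 0.06 to 1.22 against 3.39 to 3.73 (difference -3.16). *INSM1*, a zinc finger factor of neuroendocrine cells, set H82 apart from all others, with 2.46, 3.58 and 3.67 in H82 and 6.71 to 8.99 in the other 3 lines. *NKX2-1*, a factor of lung and thyroid, was likewise listed at 0 in H82 but was 5.95, 6.73 and 5.70 in H524, within the range of H69 and COR-L88.

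The machinery of peptide secretion leaned to H69 and COR-L88. Of 37 secretory granule genes, 12 were higher in these lines (32.4%, beside 7.34% of all genes) and 3 in H82 and H524 (8.11%, beside 8.58%), with a median difference of -1.17. *PCSK1*, a proprotein convertase, was 1.46, 2.05 and 1.90 in H82 and 3.16, 2.29 and 2.84 in H524, against 8.60, 8.77 and 8.78 in H69 and 7.79, 7.74 and 8.02 in COR-L88 (difference -6.00, SE 0.16, limma adjusted *P* = 5.98e-11). The related convertase *PCSK2* (-3.26), secretogranin II *SCG2* (-4.29), the calcium sensor *SCGN* (-4.88) and synaptotagmin 4 *SYT4* (-2.73) lay on the same side, whereas *CPE* (1.28), a carboxypeptidase that trims prohormones, and *RPH3AL* (3.40) were higher in H82 and H524. With the line as a random block, 4 granule genes were called higher in H69 and COR-L88 and 0 in H82 and H524. Of 17 neuropeptides, *GRP*, *GHRH* (-4.60) and *NTS* (-2.74) were higher in H69 and COR-L88 (17.6%, beside 7.34%), and *GAL* (2.96) and *NMB* (2.41), which encode galanin and neuromedin B, in H82 and H524 (11.8%, beside 8.58%). With the line as a random block 2 were called in the former direction and 0 in the latter. The mean level of the granule genes was 3.36 to 3.52 in H82, 4.27 to 4.51 in H524, 5.43 to 5.50 in H69 and 4.73 to 4.86 in COR-L88.

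Neuronal genes did not share a direction, with a median difference of -0.08 over 59 genes. Of these, 6 (10.2%, beside 8.58% of all genes) were higher in H82 and H524 and 2 (3.39%, beside 7.34%) in H69 and COR-L88, compared with 3 and 0 with the line as a random block. The 3 neurofilament genes were higher in H82 and H524. *NEFL* was 5.06 to 6.19 there, at most 0.80 in H69 and listed at 0 in COR-L88, and *NEFH* was 3.29 to 4.26 in H82 and 0.32 to 0.65 in H524. The growth cone gene *GAP43* was 6.71 to 8.44 in H82 and H524 and 5.55, 6.01 and 6.05 in H69, but at most 0.29 in COR-L88. *RTN1* (3.51) and the nicotinic receptor *CHRNA7* (1.90) were also higher in H82 and H524, and the kinesin *KIF1A* (-3.41) was among those higher in H69 and COR-L88. For *KIF1A* the difference lay in H82, at 0.39 to 0.46, whereas H524 at 5.98 to 6.22 was 0.11 below the nearest library of the other side.

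Epithelial genes gave the widest group difference. Of 38 genes, 29 (76.3%, beside 7.34% of all genes) were higher in H69 and COR-L88 and 0 (beside 8.58%) in H82 and H524. All 38 had a negative difference, beside 6527 of all 14047 genes, and the median was -3.92. *EPCAM*, an epithelial adhesion molecule, was 1.14, 0.32 and 0.25 in H82 and 2.16, 1.92 and 1.79 in H524, against 6.27, 6.49 and 6.40 in H69 and 8.21, 8.00 and 7.75 in COR-L88 (difference -5.93, SE 0.16, limma adjusted *P* = 8.46e-11). E-cadherin, *CDH1*, was at most 0.11 in H82 and H524, 2.72, 2.90 and 2.91 in H69 and 5.28, 4.98 and 5.28 in COR-L88. The keratins *KRT8* (-6.04) and *KRT19* (-5.45), the claudin *CLDN7* (-6.17), the sodium channel subunit *SCNN1A* (-6.45) and the splicing regulator *ESRP1* (-5.47) showed the same pattern, although *ESRP1* remained at 3.60 to 5.74 in H82 and H524. *GRHL2* and *CRB3* were present in COR-L88 but at or near 0 in H69, and so did not separate the sides.

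In H82, library 1 had the highest value of the 3 libraries for 23 of the 38 epithelial genes, beside 5670 of all 14047 genes. *PRSS8*, for example, was 5.16 there and 2.14 and 0.69 in libraries 2 and 3. Without this library, 31 of the 38 were counted as different, and with the line as a random block 22. The mean level of the 38 genes was 0.73 to 1.49 in H82, 1.09 to 1.34 in H524, 4.27 to 4.38 in H69 and 5.16 to 5.26 in COR-L88. The markers of other cell types had a summed level of 3.76 to 8.86 in H82, 2.37 to 6.40 in H524, 7.39 to 8.05 in H69 and 7.33 to 7.52 in COR-L88, and their part in these differences was not tested.

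**Figure D2:**
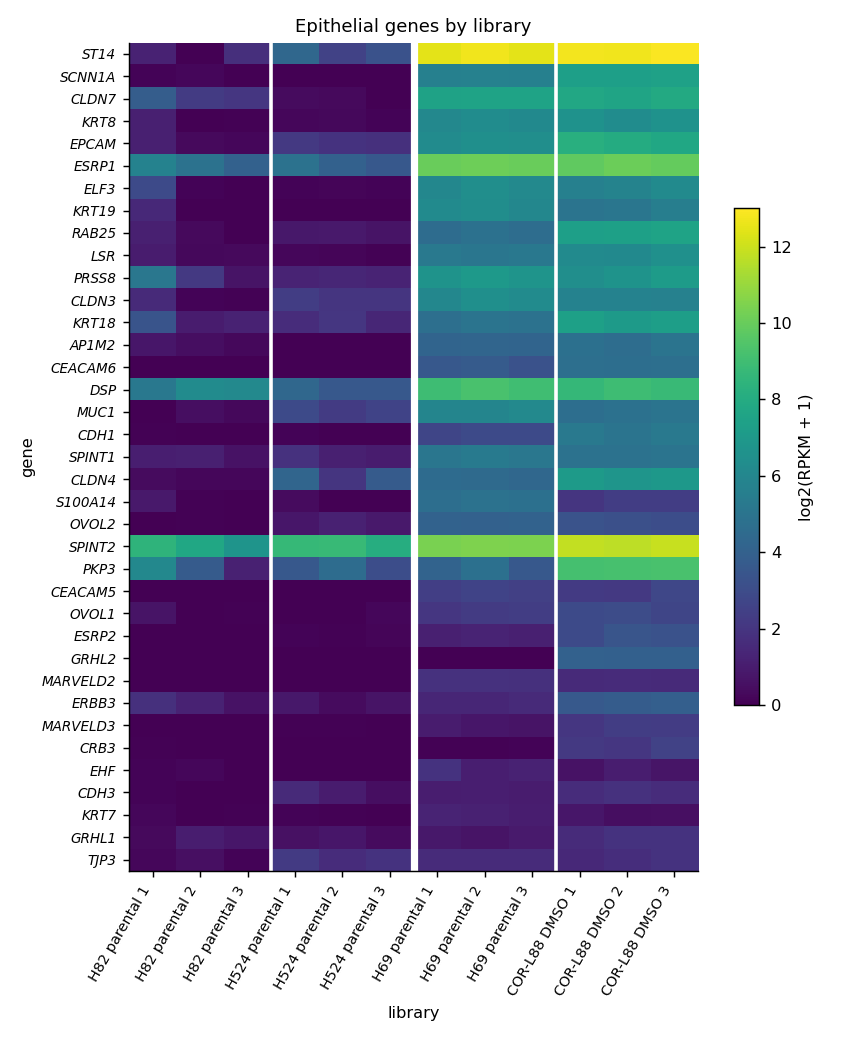
Heatmap of 37 of the 38 epithelial genes (rows, ordered by the difference between the sides) in the 12 libraries (columns, 3 for each line); color gives log2(RPKM + 1). Most of the upper rows are dark in H82 and H524 and lighter in H69 and COR-L88, and *GRHL2* and *CRB3* stand out from 0 in COR-L88 alone.

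Mesenchymal genes were not the mirror image of the epithelial ones. Of 39 genes, 8 (20.5%, beside 8.58%) were higher in H82 and H524 and 1 (2.56%, beside 7.34%) in the other lines. The median difference was 0.61, and 2 genes were counted with the line as a random block. *VIM*, an intermediate filament of mesenchymal cells, was 4.22, 2.85 and 3.29 in H82 and 5.14, 6.88 and 5.45 in H524, against 0.02, 0.00 and 0.00 in H69 and 1.73, 1.62 and 1.93 in COR-L88 (difference 3.76, SE 0.29, limma adjusted *P* = 4.73e-07). *CALD1*, an actin-binding protein, was 6.06 to 7.29 in H82 and H524 and at most 0.10 in H69, but 5.09 to 5.32 in COR-L88. *ZEB1*, a repressor of epithelial genes, was 2.29 to 3.71 in H82 and H524 and 0.56 to 0.93 in the other lines (difference 2.44). *S100A6*, a calcium-binding protein, ran the other way (-4.50), and *AXL*, a receptor kinase, was under 1 in all 12 libraries. *CD44* was high in H69 (4.87 to 5.24) and H82 (3.35 to 3.67) and did not separate the sides.

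**Figure D3:**
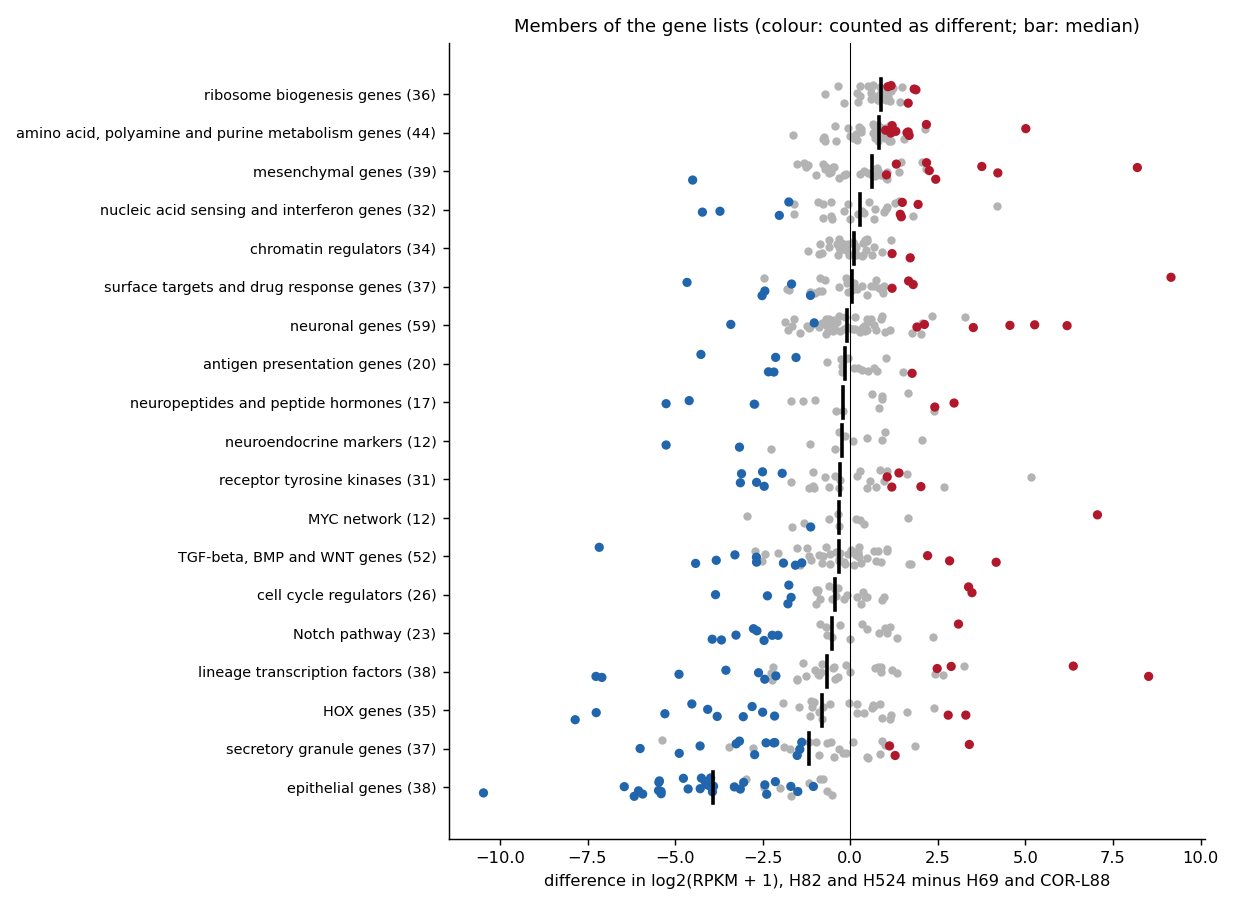
Differences between the sides (x axis, in log2(RPKM + 1), H82 and H524 minus H69 and COR-L88) for the tested members of 19 gene lists (rows, with the number tested); each point is a gene, colored where it was counted as different, and the black bar is the list's median. The medians run from -3.92 for epithelial genes to 0.87 for ribosome biogenesis genes, and most other medians lie near 0.

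The Notch pathway, through which cells signal to their neighbors and repress neuroendocrine fate, differed in its ligands and targets. Of 23 genes tested, 8 (34.8%, beside 7.34% of all genes) were higher in H69 and COR-L88 and 1 (4.35%, beside 8.58%) in H82 and H524. The counts were 5 and 0 with the line as a random block and 3 and 0 in the other untreated libraries of the lines. The median difference of -0.52 turned to 0.07 without H69. *HES1*, a direct target of the pathway, was 1.48, 0.26 and 0.18 in H82 and 0.34, 0.58 and 0.11 in H524, against 4.08, 4.40 and 4.16 in H69 and 4.87, 4.44 and 4.63 in COR-L88 (difference -3.94, SE 0.21, limma adjusted *P* = 1.86e-08). The ligands *DLL1* (-3.68), *DLL4* (-3.26), *JAG2* (-2.76) and *JAG1* (-2.46) and the glycosyltransferase *LFNG* (-2.66) were on the same side. *DLL3*, an inhibitory ligand and a drug target in SCLC, was 3.58 to 4.34 in H82 and H524 and 4.57 to 5.15 in H69 and COR-L88, without overlap but by less than 1 (-0.85). Of the receptors, *NOTCH1* was at most 0.74 in all 12 libraries and was not tested, and *NOTCH2* was 3.84 to 3.99 in H82 and 1.54 to 2.20 in the other lines.

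*REST*, the repressor of neuronal genes in non-neuronal cells, was the 1 member of this list counted as higher in H82 and H524. Its values were 4.64, 5.33 and 5.09 in H82 and 4.86, 4.95 and 4.52 in H524, against 0.00, 0.12 and 0.10 in H69 and 3.55, 3.57 and 3.52 in COR-L88 (difference 3.09, SE 0.13, limma adjusted *P* = 2.2e-09). The call was lost with the line as a random block (limma adjusted *P* = 0.0586), and in the other untreated libraries of the lines 0 members of the list were counted in this direction. H69 was thus the line without *REST* mRNA, and the lines of one side differed from each other by more than COR-L88 differed from H82.

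Of 38 lineage transcription factors, 4 (10.5%, beside 8.58% of all genes) were higher in H82 and H524 and 7 (18.4%, beside 7.34%) in H69 and COR-L88, compared with 2 and 5 with the line as a random block. Beside *NEUROD1* and *OTX2*, the former were *LHX4* (2.88), a LIM homeobox factor, and *OLIG2* (2.48), a factor of the neural tube, and the latter included *ISL1* (-3.55) and *PROX1* (-2.44) in addition to *SOX2*, *FOXA1* and *FOXA2*. *ISL1*, a LIM homeobox factor of islets and motor neurons, was 0.14 to 1.41 in H82 and H524, 5.56 to 5.60 in H69 and 2.47 to 3.20 in COR-L88.

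Antigen presentation genes differed in single members. *HLA-C*, a classical class I gene, was 2.45, 1.51 and 1.45 in H82 and 0.68, 0.07 and 0.20 in H524, against 4.62, 4.86 and 4.90 in H69 and 6.09, 5.58 and 5.88 in COR-L88 (difference -4.26, SE 0.19, limma adjusted *P* = 3.88e-09). Its counting against the other class I genes is uncertain, since they share sequence. *HLA-E*, which inhibits natural killer cells, ran the other way (1.77), with 4.54, 2.74 and 2.33 in H82, 1.46, 1.07 and 1.21 in H524 and at most 0.99 in the other lines. The peptide loading genes *TAPBP* (-2.18) and *TAPBPL* (-2.33), the stress ligand *MICB* (-2.13) and the regulator *IRF1* (-1.55) were higher in H69 and COR-L88, whereas *B2M* overlapped between the sides (6.06 to 7.61 against 4.62 to 6.92) and *HLA-B* was at most 1.42 and was not tested. In all, 5 of 20 genes (25%, beside 7.34% of all genes) were higher in H69 and COR-L88 and 1 (5%, beside 8.58%) in H82 and H524, compared with 2 and 0 with the line as a random block.

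Of 32 nucleic acid sensing and interferon genes, 4 (12.5%, beside 8.58% and 7.34% of all genes) were counted in each direction. The RNA sensor *IFIH1* was 0.00, 1.21 and 2.11 in H82 and 3.84, 3.32 and 3.18 in H524, against 5.37, 5.41 and 5.46 in H69 and 7.71, 7.66 and 7.36 in COR-L88 (difference -4.22, SE 0.29, limma adjusted *P* = 1.37e-07). *USP18* (-3.72), *ISG15* (-2.02) and the DNA exonuclease *TREX1* (-1.75) were on the same side, and *IFI44* (1.94), *IFNGR2* (1.49), *IFITM3* (1.46) and *SAMHD1* (1.43) on the other. With the line as a random block, 0 were counted. *STING1*, listed as *TMEM173*, was 2.47 to 2.55 in H524 and at most 0.55 in H82, H69 and COR-L88, so that it marked 1 line and not a side. *CXCL10*, a target of STING signaling, was at most 0.05 in all 12 libraries.

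Of 26 cell cycle regulators, 2 (7.69%, beside 8.58% of all genes) were higher in H82 and H524 and 5 (19.2%, beside 7.34%) in H69 and COR-L88. With the line as a random block the counts were 2 and 0, beside 171 and 318 of all 14047 genes. *CDK6* was 6.25 to 7.30 in H82 and H524, 4.32 to 4.56 in H69 and 1.86 to 2.83 in COR-L88 (difference 3.48, SE 0.21, limma adjusted *P* = 4.86e-08), and *CCND2*, which encodes its partner cyclin D2, was 1.87 to 4.50 against at most 0.09. *RB1*, the retinoblastoma gene that is lost in most SCLC, was 1.07 to 1.26 in H82 and H524, 2.01 to 2.15 in H69 and 3.42 to 3.68 in COR-L88. The inhibitors *CDKN1A* (-3.85) and *CDKN2D* (-2.36), together with *E2F8* (-1.78), *CCNE2* (-1.75) and *RB1* (-1.69), made up the 5 that were higher in H69 and COR-L88. *CDKN1A* was 6.69 to 6.78 in H69 but 2.29 to 3.34 in COR-L88.

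Among 37 surface targets and drug response genes, 4 (10.8%, beside 8.58% of all genes) were higher in H82 and H524 and 5 (13.5%, beside 7.34%) in H69 and COR-L88, compared with 1 and 3 with the line as a random block. *BCL2*, an inhibitor of apoptosis, was 0.18, 0.28 and 0.27 in H82 and 3.20, 1.82 and 2.78 in H524, against 5.79, 5.90 and 5.85 in H69 and 6.15, 6.52 and 6.26 in COR-L88 (difference -4.66, SE 0.20, limma adjusted *P* = 2.4e-09). Its antagonist *BCL2L11* was also higher in H69 and COR-L88 (-1.13), with sides that were only 0.04 apart. The ganglioside synthases split: *ST8SIA1* (1.80) was higher in H82 and H524 and *ST8SIA5* (-2.52) in the other lines. *KDM1A*, which encodes LSD1, the target of TAS1440, was 5.93 to 6.84 in H82 and H524 and 4.97 to 5.35 in H69 and COR-L88 (difference 1.19). It was 1 of 2 chromatin regulators counted as higher in H82 and H524 among 34 (5.88%, beside 8.58% of all genes), and 0 (beside 7.34%) were higher in H69 and COR-L88. With the line as a random block 0 were called, and the limma adjusted *P* of *KDM1A* was 0.117.

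Of 31 receptor tyrosine kinases, 6 (19.4%, beside 7.34% of all genes) were higher in H69 and COR-L88, namely *KIT* (-3.14), *EPHB1* (-3.10), *MET* (-2.67), *RET* (-2.50), *MST1R* (-2.46) and *EPHA7* (-1.94). *KIT*, the receptor of stem cell factor, was at most 0.54 in H82 and 1.05 to 1.66 in H524, against 3.58 to 4.25 in H69 and COR-L88. *TYRO3* (2.02), *FGFR2* (1.39), *FGFR4* (1.19) and *MERTK* (1.05) were the 4 higher in H82 and H524 (12.9%, beside 8.58%). With the line as a random block 4 kinases were called in the former direction and 0 in the latter.

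Of 52 genes of TGF-beta, BMP and WNT signaling, 9 (17.3%, beside 7.34% of all genes) were higher in H69 and COR-L88 and 3 (5.77%, beside 8.58%) in H82 and H524, compared with 4 and 1 with the line as a random block. The ligand *TGFB2* was 0.00 to 1.05 in H82 and H524, 4.21 to 4.25 in H69 and 5.59 to 5.82 in COR-L88, and the WNT effector *LEF1* (-3.82), *WNT11* (-2.68) and *WNT7B* (-2.67) lay on the same side. *GDF15*, a stress-induced member of the family, had libraries that lay far apart within a line, with 7.37, 0.00 and 0.00 in H82, 7.30, 7.28 and 4.34 in H524, 12.88, 13.68 and 13.58 in H69 and 7.94, 10.21 and 10.99 in COR-L88 (difference -7.17, SE 1.19, limma adjusted *P* = 0.000215). The BMP antagonists *NOG* (2.21) and *FSTL1* (4.17) were higher in H82 and H524, as was the WNT antagonist *SFRP1* (2.84), for which H524 held 5.00 to 5.53 and H82 at most 0.56.

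HOX genes encode homeobox factors that set position along the body axis and lie in 4 clusters. Of 35 tested, 10 (28.6%, beside 7.34%) were higher in H69 and COR-L88, and 8 of these were *HOXB2* to *HOXB9*, the whole set of HOXB genes tested. *HOXB9* was 0.73, 0.00 and 0.00 in H82 and 0.92, 0.68 and 0.89 in H524, against 8.37, 8.74 and 8.62 in H69 and 7.61, 8.40 and 8.59 in COR-L88 (difference -7.85, SE 0.19, limma adjusted *P* = 3.42e-11), and *HOXB4* was at most 1.41 against 7.32 to 7.78. *HOXB5* was at most 0.04 in H82 and H524, 4.56, 4.88 and 4.67 in H69 and 5.73, 5.79 and 6.16 in COR-L88. *HOXB2*, at an end of the row of HOXB genes, was the exception in H524, at 6.58, 6.64 and 5.69, where its neighbor *HOXB3* had a mean of 0.91. The genes of this cluster overlap with antisense genes, and whether the counting used strand is not given in the sources used here.

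The other HOX clusters did not follow the sides. In the HOXC cluster 7 genes had line means of 0.12 or less in COR-L88, whereas *HOXC10* had means of 4.88 in H82, 4.07 in H524 and 7.59 in H69. In the HOXD cluster *HOXD13* (2.80) was higher in H82 and H524, at 2.44 to 3.79 against at most 0.20, and *HOXD10* (-4.07) and *HOXD11* (-2.16) in the other lines. *HOXA7* (3.30) was the 1 HOXA gene counted as different. With the line as a random block 9 HOX genes were called higher in H69 and COR-L88 and 0 in H82 and H524, so that *HOXD13* (limma adjusted *P* = 0.0596) and *HOXA7* (limma adjusted *P* = 0.407) lost their calls. The median difference of all 35 HOX genes was -0.82, and it turned to 0.33 without H69.

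**Figure D4:**
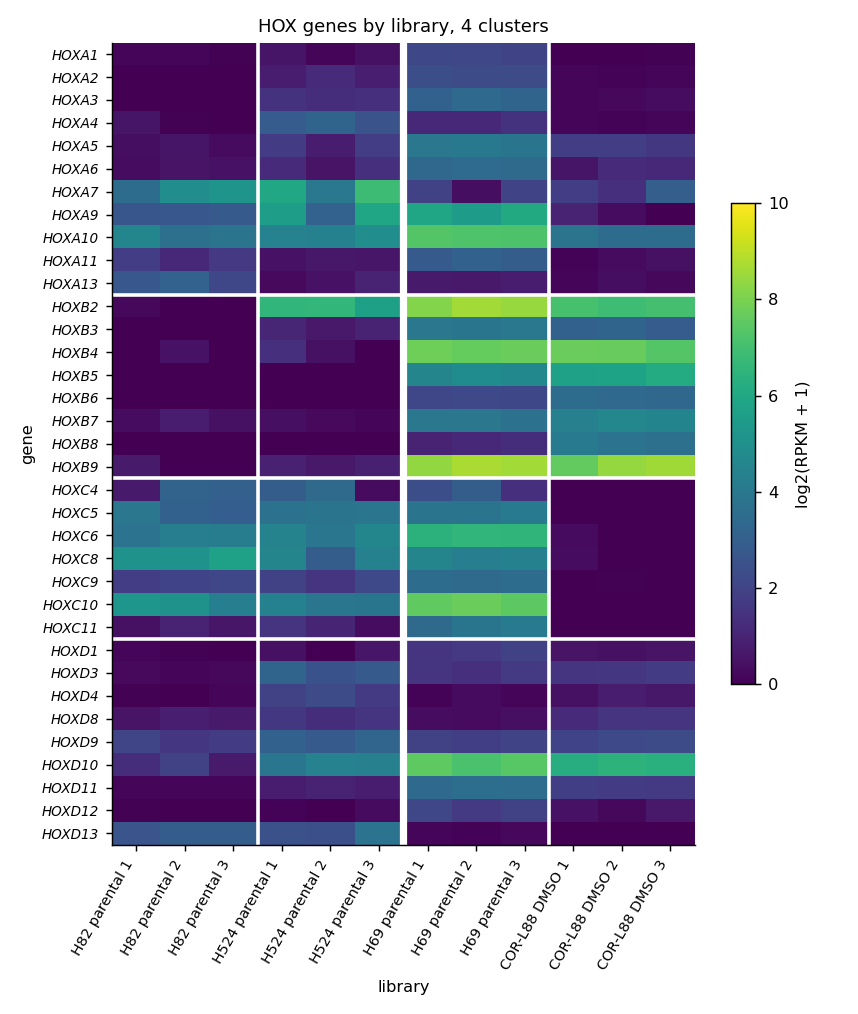
Heatmap of 35 HOX genes (rows, grouped by cluster and ordered by number) in the 12 libraries (columns, 3 for each line); color gives log2(RPKM + 1). HOXB genes are dark in H82 and, but for *HOXB2*, in H524 and are lighter in H69 and COR-L88. In H69 *HOXB8* (mean 1.13) and *HOXB6* (mean 2.16) are still dark. The 7 HOXC genes are at their darkest in COR-L88.

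The genes that differed were not spread evenly over the chromosomes. On the X chromosome 104 of 527 genes (19.7%) were higher in H82 and H524 and 7 (1.33%) in H69 and COR-L88, beside 8.58% and 7.34% of all genes. The median difference of all tested X-linked genes was 0.66, and it was 0.51, 0.54, 0.62 and 0.72 in the 4 pairs of single lines across the sides, compared with -0.14 between H82 and H524 and 0 between H69 and COR-L88. Chromosomes 3 (15.8% and 4.94%) and 15 (14.9% and 4.00%) leaned the same way. Chromosome 18 leaned to H69 and COR-L88 (2.91% and 19.9%), as did chromosomes 9 (3.18% and 17.1%) and 11 (4.15% and 13.2%). For chromosome 9 the medians were -0.63 to -0.32 in all 4 pairs of lines across the sides, whereas for chromosome 18 they ran from -0.92 to -0.09. Among the X-linked genes, *NUDT10* and *NUDT11*, which encode diphosphoinositol polyphosphate hydrolases, were 6.22 to 7.47 and 4.93 to 5.68 in H82 and H524 and at most 0.56 and 0.48 in the other lines, and these paralogs may share reads. DNA copy number was not part of the data, and its part in these shares was not tested.

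**Figure D5:**
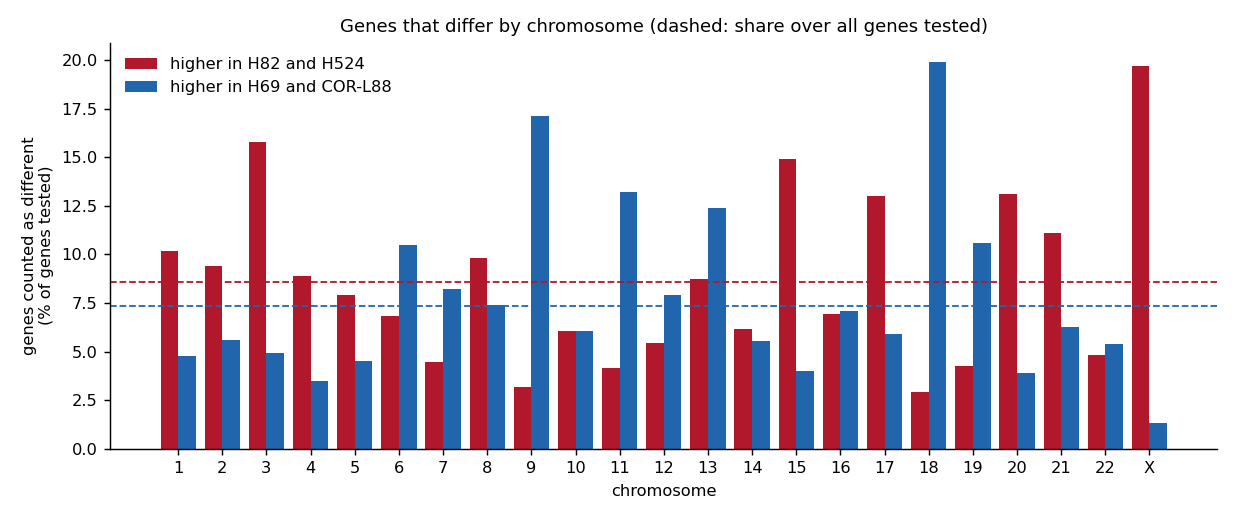
Share of tested genes counted as different on each chromosome (y axis, % of the genes tested there; x axis, chromosome), in red for genes higher in H82 and H524 and in blue for genes higher in H69 and COR-L88; dashed lines are the shares over all genes, 8.58% and 7.34%. The X chromosome has the highest red bar at 19.7% and chromosome 18 the highest blue bar at 19.9%.

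In 15 other libraries of the same 4 lines, which carried a vector without doxycycline or a *STING1* KO with DMSO, the direction of the differences was retained for nearly all genes. Of the 1205 genes higher in H82 and H524, 1203 had a difference of the same sign in them and 644 (53.4%, beside 7.86% of all genes tested) separated the sides in all 15 libraries. Of the 1031 genes higher in H69 and COR-L88, 1027 kept the sign and 551 (53.4%, beside 6.09%) separated, and 0 genes of either set separated in the opposite direction. These libraries are of the same lines and are not a test on other lines. Of the 15 genes with the widest gap on each side, 14 and 13 separated again, the exceptions including *F2R* and *HOXB9*.

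In H69 cells with the *NOTCH1* vector and no doxycycline, the subtype factor went against parental H69. *NEUROD1* was 10.61, 8.88 and 8.69, in contrast to 3.32 to 5.03. *SOX2* (7.47, 7.17 and 7.32) and *ST14* (11.89, 12.11 and 11.88) were near the level of parental H69. In library 49, the first of the 3, genes of the opposite side were present as well, with *MYC* at 6.75 (1.35 and 1.04 in the other two), *MGMT* at 5.01 (0.00 in the other two), *SPARC* at 4.77, *OTX2* at 4.04 and *NUDT10* at 3.34. Of the 1205 genes higher in H82 and H524, 895 had their highest value of the 3 libraries in library 49, beside 6123 of all 14047 genes. Without library 49, 747 and 598 genes separated (62% and 58%). *HOXB9* failed for H524 cells with the *NOTCH1* vector, in which it was 4.26, 5.95 and 6.68 without doxycycline, compared with 0.68 to 0.92 in parental H524.

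After induction of *NOTCH1* in H82, H524 and H69 or TAS1440 treatment of COR-L88 (12 libraries), fewer of the genes counted as different separated the sides. These genes were chosen for their separation in the untreated libraries, so their loss cannot show how far the sides as a whole drew together. Over all genes tested, 9.1% and 6.81% separated in the 2 directions, compared with 11.7% and 9.93% in the untreated libraries. The tested genes were chosen by their level in the untreated libraries, so genes present only after induction or treatment could not enter the former shares. These shares therefore cannot show whether the sides drew together either. Of the 1205 genes, 289 (24%, beside 9.1% of all genes) separated and 985 kept the sign, and of the 1031 genes, 189 (18.3%, beside 6.81%) separated and 843 kept the sign. The median difference was 0.57 and -0.70, down in size from 1.56 and -1.92. *NEUROD1* was 4.72 ± 0.58 in H82 with doxycycline and 9.64 ± 0.72 in H524 and was listed at 0 in H69, and it was 6.24 ± 0.33 in COR-L88 with TAS1440 (mean ± SD, n = 3 libraries). *MYC* was 7.26 ± 0.23 in H82, 9.15 ± 0.37 in H524, 6.83 ± 0.02 in H69 and 5.02 ± 0.10 in COR-L88. *SPARC* was 12.68 ± 0.01 in H69 with doxycycline, at the level of H524 (12.52 ± 0.33), in contrast to 2.61 ± 0.37 in COR-L88 with TAS1440. *MGMT* was again listed at 0 in COR-L88 with TAS1440, was 9.58 ± 0.34 in H82 with doxycycline and was 3.18, 0.00 and 2.30 in the 3 libraries of H69 with doxycycline.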

How the data were processed

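RNA-Seq of 60 human libraries was used, 12 of them for the comparison; the table of a mouse line was not used. As the study describes, reads were trimmed with Cutadapt, aligned to hg19 with STAR and quantified with RSEM; versions are not given in the sources used here. The authors scaled libraries by TMM, formed RPKM and deposited log2 values, log2(RPKM + 1) as read from the floor of 0. Depth is known only relatively: from the steps of the lowest values, the 12 libraries had sizes of 0.698 to 1.41 times the human median.

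Genes were tested with limma 3.58.1 (R 4.3.3; lmFit, a mean per line, eBayes with trend, 8 residual degrees of freedom), two-sided, with Benjamini-Hochberg adjustment over 14047 genes, and described with Python 3.11.15, pandas 2.3.3 and numpy 2.4.6; figures used matplotlib 3.10.9. The test was checked on simulated data with known changes. The simulated lines differed only by the spread between libraries, so this check could not cover the spread between lines. Gene positions are GENCODE v44 lifted to GRCh37. Genes named were the 15 of widest gap and the 15 of highest level among on-off genes in each direction, all members of the subtype, MYC and neuroendocrine lists, up to 6 called members of other lists per direction, and genes the study names; *NKX2-1*, *KRT19*, *CDH1*, *PRSS8*, *GRHL2*, *CRB3*, *HOXC10*, *HOXB3*, *HOXD11* and the markers of other cell types were added after their values were seen. Some genes that the rule names are not reported here. Comparison, lists and members were chosen with earlier results of these data known. Alternatives were other filters, pseudocount, normalization, variance and replication units, call rules, and leaving out libraries or lines.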

Additional observations from a re-analysis of the deposited data

How the results depend on the processing

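Counts of genes (all, higher in H82 and H524, higher in H69 and COR-L88) moved by over 1.5 times with the replication unit, the lines and the call rule. They were 0, 0 and 0 in limma with line means as units (1302 genes at an unadjusted *P* under 0.05) and 489, 171 and 318 with the line as a random block. Without the line H524 they were 4669, 2590 and 2079, without H69 3954, 2135 and 1819, and without COR-L88 4320, 2146 and 2174, where separation has fewer libraries to meet. They were 4265, 2219 and 2046 without separation, 1207, 582 and 625 with a gap of at least 0.5, and 852, 368 and 484 with a difference of at least 2. In the other untreated libraries of the lines 687 genes were higher in H69 and COR-L88. Leaving out 1 library gave 2223 to 2387, 1203 to 1283 and 1007 to 1113. Other filters, pseudocount, normalization and variances gave 1992 to 2535 genes in all. No paired analysis was possible because the groups compared share no replicate numbers. The list medians that kept their sign without each line in turn were those of 7 of 21 lists (subtype factors, metabolism, epithelial, other cell types, mesenchymal, ribosome biogenesis and secretory granule). Leaving out library 49 of H69 was chosen after seeing the data. Depth is known only in relative terms, and levels near 0 are the least certain.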

Other observations

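Runs of neighboring genes that differed in 1 direction were found in 26 places, counting runs of at least 4 adjacent tested genes. How many runs the share of 15.9% of genes counted as different would give by itself was not tested. Some runs hold antisense or readthrough entries, such as *HOXB-AS1*, *HOXB-AS3* and *ZNF816-ZNF321P*, which may share reads with a neighbor and lengthen a run. The longest, of 11 genes each, were the HOXB cluster with *SKAP1* (chromosome 17, 46210804 to 46710934 of GRCh37) and a cluster of zinc finger genes on chromosome 19 (53030905 to 53466164), both higher in H69 and COR-L88. In the latter, *ZNF320* had line means of 0.83 in H82 and 0.23 in H524, against 4.08 in H69 and 4.65 in COR-L88 (difference -3.84, SE 0.12, limma adjusted *P* = 2.62e-10). *ZNF611* (-3.01), *ZNF83* (-2.99), *ZNF468* (-2.68) and *ZNF28* (-2.42) lay beside it. A second zinc finger run on chromosome 19 (19896648 to 20311297) held 6 genes, among them *ZNF253* (-3.35). Zinc finger paralogs may share reads, which leaves the value of each uncertain, and these genes were chosen after their values were seen.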
